A study of Mus musculus with 3 samples.

Results

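The 9 genes Ccr2, Ccr4, Ccr6, Ccr8, Ccr9, Ccr10, Cxcr3, Cxcr5 and Cxcr6 encode chemokine receptors best known from effector, memory and tissue-homing lymphocytes, and were chosen by name, as 9 of the 50600 genes in the deposited tables. The series sequenced RNA of primary T cells from C57BL/6NJ mice in 3 libraries, which form a single group and carry the biological replicate numbers 2, 3 and 4 in the labels. The labels give no treatment, genotype or time, and record neither sex nor age. They point to a protocol for differentiating CD4+ T cells and to a poly(A) library protocol, whereas the assay is called total RNA-seq, and the file headers name the cells Th0, activated, at 0 h. All 3 libraries share a donor identifier while each has a biosample of its own, so separate animals are not stated, and the p-values here reflect spread between libraries alone, part of which may be technical.

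Chemokine receptors are G protein-coupled receptors that steer leukocytes along gradients of chemokines, small secreted proteins laid down by tissues. Naive T cells recirculate through lymph nodes with Ccr7 and Cxcr4, whereas antigen-experienced cells gain receptors for follicles, gut, skin and inflamed tissue. Receptors of the second kind are used to tell helper subsets apart, and each binds a small set of ligands.

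Gene counts totalled 47432940 in replicate 2, 59698913 in replicate 3 and 28340521 in replicate 4, so replicate 4 gives the widest counting error. The 9 receptors together held 2200 of these counts. Replicate 2 stood apart in sex-linked genes, with 151 TPM of Xist, the RNA of X inactivation, against 0.221 and 0.399 TPM in replicates 3 and 4, and with 0.248 TPM of the Y-linked Ddx3y against 79.96 and 72.3 TPM. This is the pattern of female cells in replicate 2 and of male cells in replicates 3 and 4. The 3 libraries therefore cannot all come from 1 animal. Differences of replicate 2 from the other libraries cannot be told apart from sex. TPM is a level, in which each gene's counts are divided by its exon length and expressed relative to those of all genes in the library. Intervals beside it are 95% exact Poisson intervals, which cover counting error only. In a list of naive T cell markers, each of the 12 genes reached 1 TPM in all 3 libraries, and they summed to 8712, 8352 and 8237 TPM in replicates 2, 3 and 4. Of 18 effector and memory genes 11 reached that level, and their summed level was 709, 786 and 771 TPM. The T cell and CD4 lineage genes Trac, Cd4, Cd3e and Zbtb7b were all detected, with Cd4 at 1044 ± 24.6 TPM and, of the 2 CD8 chain genes, Cd8a at 0.534 ± 0.182 TPM and Cd8b1 at 33.6 ± 3.00 TPM. Of other cells, markers were detected in 1 of 2 cases for CD8 T cells, 2 of 7 for NK and NKT cells, 5 of 11 for dendritic cells and MHC class II, and 2 of 6 for plasmacytoid dendritic cells. Cd74, H2-Eb1 and H2-Ab1, of the dendritic cell and MHC class II list, averaged 117, 30.9 and 24.6 TPM. Pacsin1, of the plasmacytoid list, averaged 80.6 TPM, while Clec9a, Xcr1 and Klk1 had 0 counts.

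Transcripts of 5 of the 9 receptors, Cxcr5, Ccr8, Ccr9, Cxcr3 and Ccr4, were at 1 TPM or more in all 3 libraries. That level was met by 46.1% of 21764 protein-coding genes and by 23.4% of all genes, so the receptors passed it about as often as protein-coding genes at large. Ccr6 and Cxcr6 passed it in 2 of 3 libraries, and Ccr2 and Ccr10 in 0 of 3. All 9 means lay far under 33.4 TPM, the median of the protein-coding genes that passed. Fewer cells that carry a receptor and less RNA per cell cannot be told apart in these bulk libraries.

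**Figure D1:**
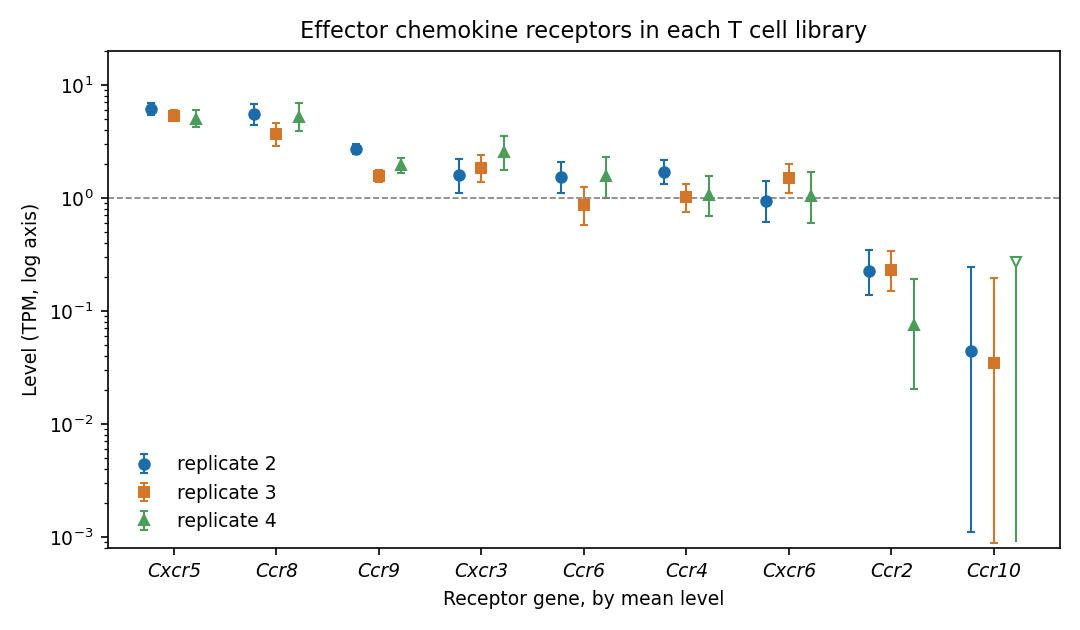
Level of each of the 9 receptor genes in each of the 3 libraries (TPM, log axis), with 95% exact Poisson intervals; the dashed line marks 1 TPM, and the open triangle is the upper limit of the library with 0 counts of Ccr10. Cxcr5 and Ccr8 lie above 3 TPM in every library, 5 receptors lie near the line, and Ccr2 and Ccr10 lie below it.

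Start regions are shown for Ccr8, Ccr9, Ccr6 and Ccr4, the 4 receptors that were lowest in replicate 3, and for Cxcr6, which was highest there, so that the letters of receptors with the same lowest library can be compared. Ccr2 was also highest in replicate 3, and its window, which held 1 GATA match, is not printed. Its window overlaps the deposited gene model, as the printed windows of Ccr9 and Ccr4 also do. Each printed region is the 200 bases from 250 to 51 bases before the RefSeq start on GRCm38.p6, written 5′ to 3′ on the gene's strand. Capitals mark matches to 6 motifs searched on both strands. The windows are chr9:120091883-120092082 (plus) for Ccr8, chr9:123766961-123767160 (plus) for Ccr9, chr17:8235793-8235992 (plus) for the first of 2 Ccr6 starts, chr9:114496595-114496794 (minus) for Ccr4 and chr9:123806227-123806426 (plus) for Cxcr6.
Ccr8: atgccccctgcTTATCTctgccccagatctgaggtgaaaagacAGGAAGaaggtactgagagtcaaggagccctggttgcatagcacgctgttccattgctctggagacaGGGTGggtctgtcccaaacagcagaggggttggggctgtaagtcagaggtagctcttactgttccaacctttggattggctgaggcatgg
Ccr9: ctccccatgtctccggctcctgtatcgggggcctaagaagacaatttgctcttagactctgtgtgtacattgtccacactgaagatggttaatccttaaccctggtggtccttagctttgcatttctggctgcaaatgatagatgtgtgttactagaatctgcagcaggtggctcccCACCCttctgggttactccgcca
Ccr6: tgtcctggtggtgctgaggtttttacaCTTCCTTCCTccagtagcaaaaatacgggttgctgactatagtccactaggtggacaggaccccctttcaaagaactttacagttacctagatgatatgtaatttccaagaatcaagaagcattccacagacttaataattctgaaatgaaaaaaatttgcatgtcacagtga
Ccr4: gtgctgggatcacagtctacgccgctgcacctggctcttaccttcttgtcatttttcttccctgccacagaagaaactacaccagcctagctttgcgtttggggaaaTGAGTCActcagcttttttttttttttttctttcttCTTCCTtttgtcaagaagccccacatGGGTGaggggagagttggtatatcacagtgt
Cxcr6: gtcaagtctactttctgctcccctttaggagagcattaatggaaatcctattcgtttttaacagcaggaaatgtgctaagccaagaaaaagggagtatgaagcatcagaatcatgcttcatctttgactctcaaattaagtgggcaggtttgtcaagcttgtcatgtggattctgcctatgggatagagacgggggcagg

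The motifs were an ETS core (AGGAAG or CTTCCT, in 23.9% of 32851 such windows), a KLF core (GGGTG or CACCC, 44.4%), a RUNX site (TGTGGT or ACCACA, 11.6%), a GATA site (AGATAA or TTATCT, 8.42%), a T-box core (GGTGTG or CACACC, 13.4%) and an AP-1 site (TGAGTCA or TGACTCA, 3.61%). Ccr8 held 1 match each to ETS, KLF and GATA, Ccr4 held 1 each to ETS, KLF and AP-1, and Ccr9 held 1 to KLF. The Ccr6 window held 2 overlapping ETS matches, and in the Cxcr6 window none of these letters was found. A match is a run of letters in this window and not a binding site, and the RefSeq table gave no entry for Cxcr5 and Ccr10.

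The receptor best known for placing T cells in B cell follicles was the highest with merged exon lengths. Cxcr5 (ENSMUSG00000047880.15, mm10 chromosome 9, 44511787 to 44561877, minus strand) encodes the CXCL13 receptor of B cells and follicular helper T cells. It had 267, 296 and 133 counts in replicates 2, 3 and 4, or 6.09, 5.34 and 5.01 TPM. Its mean of 5.48 ± 0.553 TPM (SD, n = 3) was above that of 59.7% of protein-coding genes, and the intervals of the 3 libraries overlapped. Cxcr5 is also a gene of B cells, and B cell markers were present: 10 of 12 reached 1 TPM in every library, and Cd79a, a chain of the B cell receptor, averaged 14.8 ± 2.31 TPM. The whole list summed to 1301, 1267 and 1318 TPM in replicates 2, 3 and 4, most of it Ighm, the IgM heavy chain gene, at 1223 ± 40.6 TPM. Without the immunoglobulin genes Ighm and Ighd, the 10 remaining markers summed to 55.5, 63.7 and 43.2 TPM in replicates 2, 3 and 4, and their part in the Cxcr5 level was not tested. Follicular helper genes were detected in 6 of 9 cases, among them Btla at 132 ± 10.96 TPM, an inhibitory receptor, Icos at 39.2 ± 4.61 TPM, a costimulatory receptor, Sh2d1a at 20.04 ± 2.27 TPM, a signalling adaptor, and Bcl6, the regulator of that subset, at 18.4 ± 1.48 TPM. The follicular helper cytokine Il21 had 4, 2 and 2 counts, and Ascl2, a factor known to drive Cxcr5, had 4, 0 and 2 counts.

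Ccr8 and Ccr4 are the receptors of Th2 and regulatory T cells. Ccr8 (ENSMUSG00000042262.5, chromosome 9, 120092114 to 120094906, plus strand), a receptor for CCL1, had 85, 72 and 49 counts, or 5.49, 3.68 and 5.23 TPM in replicates 2, 3 and 4. Ccr4 (ENSMUSG00000047898.7, chromosome 9, 114490316 to 114504916, minus strand), which binds CCL17 and CCL22, had 69, 52 and 26 counts, or 1.69, 1.01 and 1.05 TPM. Ccr8 was lowest in replicate 3 and Ccr4 highest in replicate 2, but in both genes the intervals of all libraries overlapped. The means were 4.80 ± 0.980 TPM for Ccr8 and 1.25 ± 0.383 TPM for Ccr4 (SD, n = 3), and the log2 difference, on the log2(TPM + 0.1) scale, was 1.87 ± 0.30 in favour of Ccr8, positive in 3 of 3 libraries. Of 11 regulatory T cell genes 9 were detected, led by the costimulatory receptors Tnfrsf18 at 94.99 ± 3.95 TPM and Tnfrsf4 at 39.0 ± 4.62 TPM. Foxp3, the lineage factor of regulatory T cells, stood at 5.12, 7.45 and 6.98 TPM in replicates 2, 3 and 4, and Gata3, the Th2 regulator also needed in resting CD4 T cells, at 51.9, 56.6 and 60.8 TPM. Foxp3 was lowest in replicate 2, where Ccr4 was highest. The sum of the 11 regulatory T cell genes was instead highest in replicate 2, at 186 TPM against 174 and 184 TPM in replicates 3 and 4. Tnfrsf18, Ikzf4, Ctla4 and Gpr83 were also highest there, and the rest of the list in other libraries. The part of these cells in Ccr4 was not tested. The Th2 cytokine genes Il4, Il5 and Il13 had 1, 0 and 0 counts over the 3 libraries. Helper cytokine genes were detected in 0 of 9 cases.

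The gut-homing receptor gene Ccr9 held more counts than any other member. Ccr9 (ENSMUSG00000029530.16, chromosome 9, 123678439 to 123784330, plus strand) encodes the CCL25 receptor, used in the thymus and in homing to the small intestine. It had 364, 269 and 159 counts in replicates 2, 3 and 4, or 2.69 TPM (2.43 to 2.99), 1.58 TPM (1.39 to 1.78) and 1.94 TPM (1.65 to 2.27). Replicate 2 was above both others with no overlap of intervals, which was the case for 1 of the 9 receptors. Its mean was 2.07 ± 0.570 TPM (SD, n = 3), a coefficient of variation of 27.5%, where counting error alone gives 6.52%. The integrin genes that serve homing to the gut wall stood at 118 ± 11.8 TPM (Itga4) and 1564 ± 107 TPM (Itgb7). Itgae, which encodes the αE chain of an integrin that holds T cells in epithelia, was at 0.229 ± 0.0892 TPM, and Gpr15, a colon-homing receptor gene, had 6, 5 and 0 counts. Among thymocyte genes, Rag1 and Rag2, the recombinase genes, were at 0 counts in every library, Ptcra had 5, 1 and 0 counts, and Dntt, which adds bases at receptor gene joints, stood at 30.8, 22.2 and 27.4 TPM. Dntt shared with Ccr9 its highest library, replicate 2, and its lowest, replicate 3. Arpp21, of the same list, went the other way in replicate 2, with 0.0741, 0.169 and 0.209 TPM in replicates 2, 3 and 4. The bearing of thymocyte genes on Ccr9 was not tested.

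Receptors tied to Th1 and Th17 cells came next. Cxcr3 (ENSMUSG00000050232.6, chromosome X, 101731535 to 101734269, minus strand), the Th1 receptor for CXCL9 and CXCL10, had 36, 53 and 35 counts, or 1.58, 1.84 and 2.54 TPM. Its highest library was replicate 4, in which the Th1 regulator Tbx21 also stood highest, at 1.87 TPM against 1.10 and 0.845 TPM in replicates 2 and 3. Their lowest libraries differed, and the bearing of Tbx21 on Cxcr3 was not tested. Cxcr3 lies on the X chromosome and was lowest in replicate 2, the library with Xist, and whether these go together was not tested. The intervals of Cxcr3 in all 3 libraries overlapped, from 1.11 to 2.19 TPM in replicate 2 and from 1.77 to 3.53 TPM in replicate 4. Ccr6 (ENSMUSG00000040899.13, chromosome 17, 8236043 to 8257127, plus strand), the CCL20 receptor of Th17 cells and B cells, had 41, 29 and 25 counts, or 1.54, 0.859 and 1.55 TPM. Replicates 2 and 4 were alike in Ccr6, and replicate 3 was under 1 TPM with an interval that overlapped both. Means were 1.99 ± 0.495 TPM for Cxcr3 and 1.31 ± 0.394 TPM for Ccr6 (SD, n = 3). Of the γδ T cell genes, 1 of 6 was detected, the constant gene Trdc at 10.5, 7.68 and 7.24 TPM, and of the Th17 cytokine genes Il17a had 1, 0 and 0 counts and Il17f 14, 3 and 6. Il17f was lowest in replicate 3, as Ccr6 was, and its bearing on Ccr6 was not tested.

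Cxcr6, Ccr2 and Ccr10 were the lowest 3. Cxcr6 (ENSMUSG00000048521.8, chromosome 9, 123806475 to 123811760, plus strand), the CXCL16 receptor of tissue-resident T cells and NKT cells, had 24, 48 and 16 counts, or 0.944, 1.49 and 1.04 TPM in replicates 2, 3 and 4. It was highest in replicate 3, and its mean was 1.16 ± 0.294 TPM (SD, n = 3). Zbtb16, the factor that defines NKT cells, had 1, 5 and 1 counts, highest in the same library. These are near the floor, and the intervals of all libraries overlapped. Of the NK and NKT list, Klrd1 was also highest in replicate 3. Il18r1, Il18rap and Klrk1 were highest in replicate 2, and Ncr1 and Klrb1c in replicate 4. Whether transcripts of Zbtb16 and of Cxcr6 come from the same cells was not tested. Ccr2 (ENSMUSG00000049103.14, chromosome 9, 124101950 to 124113557, plus strand), the CCL2 receptor of inflammatory monocytes and some effector T cells, had 20, 26 and 4 counts, or 0.225, 0.231 and 0.0742 TPM. Replicate 4 was the lowest, with an interval that overlapped those of replicates 2 and 3. Monocyte markers gave 3 of 10 detected, with the defining genes Cd14 and Fcgr1 at 0 counts in all libraries, and the list summed to 65.8, 65.5 and 67.8 TPM in replicates 2, 3 and 4. Most of that was Ms4a6c at 60.2 ± 1.08 TPM, and without it the sum was 4.84, 6.55 and 7.06 TPM. Either sum was highest in replicate 4, where Ccr2 was lowest, though the full sums were close. The bearing of monocyte transcripts on Ccr2 was not tested. Ccr10 (ENSMUSG00000044052.3, chromosome 11, 101172997 to 101175443, minus strand), the receptor for the skin chemokine CCL27 and for CCL28, had 1, 1 and 0 counts. Its 2 counts in all lay under the floor of 3 counts, which corresponds to 0.0460 TPM over the pooled libraries.

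Levels were then compared between receptors within each library. For all 36 pairs the difference of log2(TPM + 0.1) was taken in each library, and 30 pairs kept their sign in 3 of 3 libraries. Flipping signs over 3 libraries in an exact permutation test, two-sided, cannot give less than p = 0.25, so the smallest adjusted p over the 54 contrasts was 0.281 by the Benjamini-Hochberg method, and no contrast could pass 0.05. Counting error is smaller: in 32 of the 36 pairs the 95% exact binomial interval of the pooled count ratio per base left out 1. Read down the order of mean levels, Cxcr5 and Ccr8 differed by 0.20 ± 0.30 (SD, n = 3), with Cxcr5 higher in 2 of 3 libraries, and are neighbours that did not differ beyond the spread. Ccr8 stood above Ccr9 by 1.19 ± 0.19, with the same sign in 3 of 3 libraries and a pooled ratio of 2.27 (1.94 to 2.65), a sign that turned with another choice of gene length. Next down, Ccr9 and Cxcr3 differed by 0.05 ± 0.60, Ccr6 and Ccr4 by 0.06 ± 0.40, and Ccr4 and Cxcr6 by 0.09 ± 0.65, all within their spread with merged lengths. With the shortest coding transcript of each gene Ccr9 stood 1.91 above Cxcr3 and Ccr4 1.10 above Cxcr6, so their places in the order depend on the length used. Between them Cxcr3 exceeded Ccr6 by 0.58 ± 0.50, with 3 of 3 libraries of that sign but a gap of only 0.04 in replicate 2. A wide gap of 2.22 ± 0.51 separated Cxcr6 from Ccr2. Ccr2, at 0.177 ± 0.0888 TPM, was 6.38 times Ccr10 in pooled counts per base, with an interval of 1.68 to 54.2 that reflects the 2 counts of Ccr10.

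Against the receptors of recirculating cells all 9 were low. Cxcr5, the highest, differed from Ccr7, the lymph node entry receptor, by -7.56 ± 0.09 on the log2 scale (SD, n = 3), and from Cxcr4, the receptor for CXCL12, by -5.95 ± 0.14. In pooled counts per base, Ccr7 was 191 times Cxcr5 (177 to 206) and Cxcr4 was 64.1 times Cxcr5 (59.4 to 69.2). All 18 contrasts of a receptor with Ccr7 or Cxcr4 had the same sign in 3 of 3 libraries. The 9 receptors summed to 20.3, 16.1 and 18.4 TPM in replicates 2, 3 and 4, whereas Ccr7 alone stood at 1086, 1055 and 1011 TPM. Their share of the TPM of all 19 chemokine receptors was 1.38%, 1.11% and 1.38%, a mean of 1.29 ± 0.159% (SD, n = 3). Replicate 3 was the lowest in both the sum and the share.

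**Figure D2:**
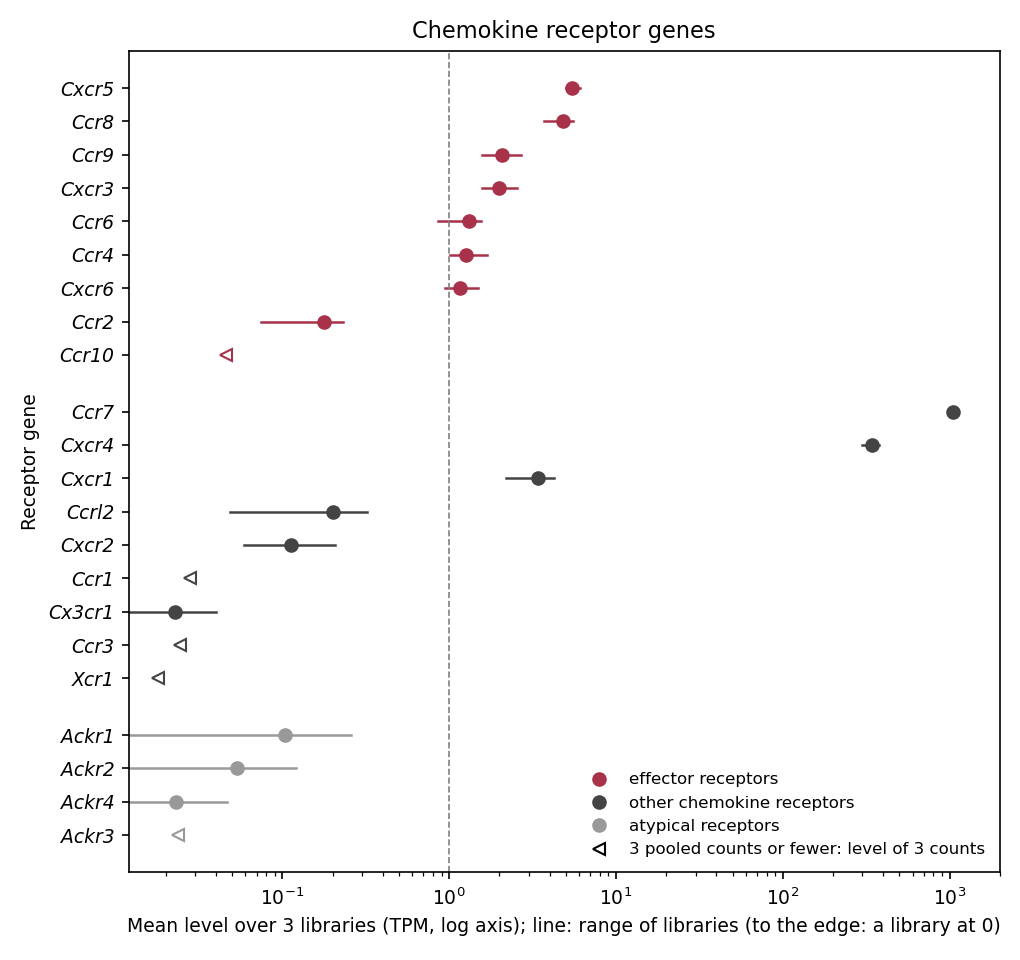
Mean level over 3 libraries of the 9 effector receptors, 9 of the 10 other chemokine receptors and 4 atypical receptors (TPM, log axis), with the range of the libraries as a line; open markers stand at the level of 3 pooled counts for genes with 3 counts or fewer. The effector receptors other than Ccr10 span 0.177 to 5.48 TPM, all to the left of Cxcr4 and Ccr7.

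Receptors outside the 9 were mostly near the floor. Besides Ccr7 and Cxcr4, Cxcr1 was detected, a receptor gene known mainly from neutrophils in humans, with 83, 93 and 26 counts or 4.23, 3.75 and 2.19 TPM in replicates 2, 3 and 4. Its mean of 3.39 ± 1.07 TPM lay between Ccr8 and Ccr9, while its close relative Cxcr2, the main neutrophil receptor of the mouse, had 3, 3 and 5 counts. Neutrophil markers were detected in 0 of 5 cases, with Retnlg and Mpo at 0 counts. Ccrl2, a non-signalling chemokine receptor, stood at 0.322, 0.231 and 0.0483 TPM. Ccr1 and Ccr3 had 3 counts each over the 3 libraries, Cx3cr1 had 4 and Xcr1 had 0. None of the 4 atypical receptors, which bind chemokines without G protein signalling, reached 1 TPM in all 3 libraries, with 7 pooled counts each for Ackr1 and Ackr2, 4 for Ackr4 and 0 for Ackr3.

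Transcripts of the receptors' ligands were scarce in the same libraries. Of 16 ligand genes 2 were detected: Ccl25, the ligand of Ccr9, at 2.92, 2.74 and 2.61 TPM, and Ccl27a, a ligand of Ccr10, at 1.28, 1.67 and 2.01 TPM in replicates 2, 3 and 4. Ccl22, a ligand of Ccr4, had 3, 16 and 10 counts, and 8 ligand genes had 0 counts in every library, among them Ccl17, Ccl20 and Cxcl13. The intracellular machinery was present by contrast, with 17 of 18 signalling genes detected. It was led by Rac2, a GTPase of leukocyte motility, at 1610 ± 32.2 TPM, and by the receptor kinases Grk6 at 930 ± 34.4 TPM and Grk2 at 861 ± 19.1 TPM. Regulators of G protein signalling were spread widely, from Rgs14 at 389 ± 3.97 TPM and Rgs19 at 201 ± 5.94 TPM to Rgs1 at 1.18, 1.31 and 1.99 TPM. Rgs18, at 1, 0 and 0 counts, was the 1 signalling gene not detected. Of 13 regulators tied to these receptors 10 were detected. Klf2, which maintains the recirculating state, and Foxo1, which acts upstream of it, stood at 649 ± 28.02 and 177 ± 3.96 TPM. Among homing partners, 10 of 15 were detected, led after Itgb7 by S1pr1, the lymph node exit receptor, at 648 ± 28.5 TPM and Selplg, the selectin ligand PSGL-1, at 570 ± 8.52 TPM. Glycosyltransferase genes of selectin ligands differed in level, with Fut7 at 0.508 ± 0.205 TPM and Gcnt1 at 0.247 ± 0.105 TPM. St3gal4 stood higher at 31.6 ± 2.33 TPM and St3gal6 at 9.925 ± 0.476 TPM, both detected in all 3 libraries.

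Variation among the 3 libraries was the test open across all genes. A goodness of fit test in edgeR, which asks whether a gene scatters more than genes of its abundance, called 72 of 13498 genes, or 0.533%, at a Benjamini-Hochberg adjusted p of 0.05. Of the 8 receptors with a mean count of 10 or more, 0 were called, and 1, Ccr9, passed 0.05 before adjustment. The unadjusted edgeR p was 0.018 for Ccr9 and lay between 0.194 for Ccr2 and 0.714 for Cxcr5 in the rest. The adjusted p of Ccr9 in edgeR was 0.823, and it ran from 0.0889 to 1.0 over the alternatives. At the receptors' abundance the test had little reach: in simulated libraries it found 0% of 1.5-fold, 5.97% of 2-fold and 56.1% of 4-fold changes confined to 1 library. Differences of the size seen here, at most 1.80-fold between libraries except for Ccr2 at 3.11-fold, were mostly out of reach of the test at this depth.

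**Figure D3:**
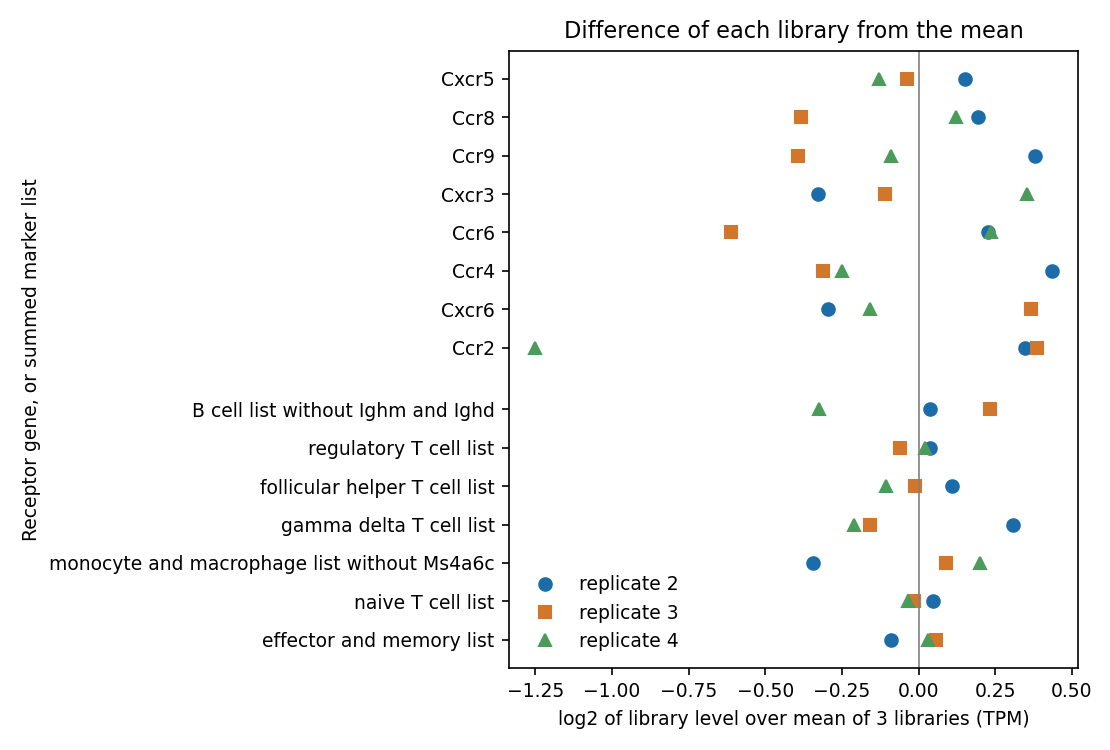
Log2 of each library's level over the mean of the 3 libraries, for 8 receptors and for 7 summed marker lists. Replicate 3 is the lowest library for Ccr8, Ccr9, Ccr6 and Ccr4 and the highest for Cxcr6 and Ccr2, while the naive list stays within 0.05 of 0.

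The receptors did not rank the libraries alike. Replicate 3 was the lowest library for Ccr8, Ccr9, Ccr6 and Ccr4, replicate 2 for Cxcr3 and Cxcr6, and replicate 4 for Cxcr5 and Ccr2. Replicate 3 was the lowest library in 28.1% of 11274 protein-coding genes and in 4 of these 8 receptors, and with so few genes the order is a description. Of their 4 start windows printed here, ETS letters stood in 3 and KLF letters in 3, and none of the 6 motifs stood in all 4. Over all 32851 windows ETS letters stood in 23.9% and KLF letters in 44.4%. The window of Cxcr3, which was not lowest in replicate 3, also held 1 ETS match. At the second Ccr6 start neither ETS nor KLF letters were found. The bearing of these letters on the order of libraries was not tested. Without Ighm and Ighd the B cell sum was highest in replicate 3, where Ccr6, which B cells also carry, was lowest. The sum of the whole B cell list, mostly Ighm, was instead lowest in replicate 3. The regulatory T cell sum of 186, 174 and 184 TPM in replicates 2, 3 and 4 was lowest where Ccr8 was. That sum is mostly Tnfrsf18 and Tnfrsf4, and the genes of the list differed in order. Tnfrsf4, Il2ra, Ctla4 and Nrp1 were lowest in replicate 3, with Il2ra at 3.48, 2.83 and 5.49 TPM. Tnfrsf18, Ikzf4 and Gpr83 were lowest in replicate 4. The lineage genes Foxp3 and Ikzf2 were instead highest in replicate 3, with Ikzf2 at 1.33, 1.75 and 1.58 TPM. Lrrc32 was lowest in replicate 2, and Il10 had 2 counts, both in replicate 3. The part of either cell type in these orders was not tested.

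The order of the receptors depended on which length a gene is given. The deposited length merges the exons of all transcripts, and for Ccr9 that came to 10260 bases, whereas its longest coding transcript has 5197 bases and its shortest 2620. Its deposited model also begins 88772 bases before the RefSeq start. With the longest coding transcript of every gene Ccr9 stood at 2.98 ± 0.821 TPM and remained the third of 9, and with the shortest it stood at 3.86 ± 1.06 TPM and was the first, above Cxcr5 at 3.32 ± 0.328 TPM and Ccr8 at 2.28 ± 0.466 TPM (SD, n = 3). Ccr8 minus Ccr9 on the log2 scale was then -0.72, where the merged length gave 1.19. Ccr8, Cxcr3 and Ccr10 have a single coding transcript each, so their lengths did not move and their levels changed only through the scaling. Which transcripts of Ccr9 the counts came from cannot be told from gene tables.

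**Figure D4:**
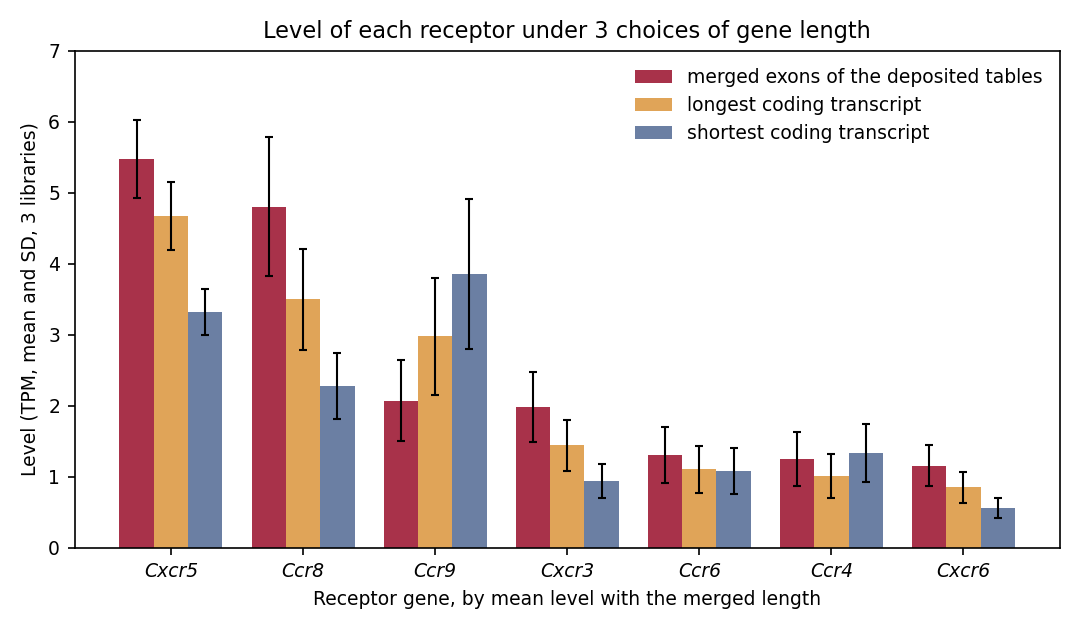
Mean level and SD over 3 libraries (TPM) of the 7 receptors above 1 TPM, under the merged exon length of the deposited tables, the longest coding transcript and the shortest coding transcript of each gene. With the shortest length Ccr9 stands at 3.86 TPM, above Cxcr5 and Ccr8, and the other receptors except Ccr4 stand lower than with the merged length.

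Of the 9 genes, 6 lie on chromosome 9, and 3 of these, Ccr9, Cxcr6 and Ccr2, sit in a cluster of chemokine receptor genes. Levels along it were uneven. Ccr9 and Cxcr6 at its start were above 1 TPM on average, Xcr1 and Ccr1l1 had 0 counts, Ccr1 and Ccr3 had 3 counts each, and Ccr2 had 50 counts. Cxcr6 lies inside Fyco1, a gene of vesicle transport on the other strand at 50.1 ± 0.908 TPM, and Ccr9 overlaps Lztfl1 at 3.39 ± 0.661 TPM and AC165425.1 at 105, 99 and 49 counts, both on the other strand. Cxcr5 overlaps the end of Bcl9l, on the other strand at 203 ± 14.1 TPM, and Ccr10 lies within Cntnap1. Counting was by strand, per the file headers, so such partners were separated, apart from any reads that carry the wrong strand.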

How the data were processed

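Per the file headers, the authors counted read pairs per gene with featureCounts 1.4.6-p4 against GENCODE M13 on mm10, by exon and gene, requiring both ends to be aligned and using the reverse strand option (2). The deposited values are whole counts, used as deposited, and a merged exon length per gene. Settings of the aligner are not given in the sources. TPM were computed here from both, and symbols were matched by Ensembl identifier (50376 of 50600 genes). The members and marker lists were chosen with earlier results of these data known.

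Contrasts within libraries used log2(TPM + 0.1), tested two-sided by an exact permutation of signs. Variation was tested by edgeR 4.0.16 (R 4.3.3) as the goodness of fit of a negative binomial model with a common mean, TMM normalization and a trend in dispersion, where the mean count was at least 10. It was checked on simulated data with 200 changed genes. In that check 3 false calls were made, and 0 with no gene changed. Transcript lengths came from GENCODE M21, also on mm10. The settings varied were the detection threshold, pseudocount, scaling, count minimum and dispersion, with DESeq2 1.42.0 size factors among the scalings, and each replicate was left out in turn. Transcript lengths were added after seeing the data. Tables and figures were made in Python 3.11.15 (pandas 2.3.3, numpy 2.4.6, matplotlib 3.10.9, scipy 1.17.1).

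The rule was to name every receptor, the 3 highest genes of each list, the regulator known for a member, markers at 0 counts, neighbours and overlapping genes, and not every gene it covers is printed. Xist, Ddx3y, Ikzf2, Il17a, Il4, Il5, Il13, Il21, Ascl2, Cd8a, Itga4, Itgae, Gpr15, Fut7, Gcnt1, Rgs1, Rgs18, Ccl17, Ccl20 and Cxcl13 were named after their values were seen. Rgs14, Rgs19, St3gal4, St3gal6, Csf1r, Itgam, Adgre1, Il2ra, Ctla4, Nrp1, Ikzf4, Lrrc32, Il10, Il18rap, Klrk1 and Klrb1c were likewise named after that. The text lists of files deposited beside the tables were left out. Values of some list genes are not reported here.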

Additional observations from a re-analysis of the deposited data

How the results depend on the processing

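The number of receptors detected in all 3 libraries was 5, and 2 at a threshold of 2 TPM, and 5 to 6 when a replicate was left out (6 without replicate 2, 6 without replicate 3). Under the remaining settings it was 4 to 7. Their share of chemokine receptor TPM, 1.29%, was 2.12% of counts not corrected for length, 1.52% with the longest and 2.01% with the shortest coding transcript. Genes called varying among libraries numbered 312 under a common dispersion and 35 to 46 when a replicate was left out, against 72, and 0 receptors were called under every alternative run. Between receptors, Ccr8 over Ccr9 turned to -1.83 in CPM and -0.72 with the shortest transcript, Cxcr5 over Ccr9 to -0.19 and -0.18, and Ccr6 over Ccr4 to -0.49 and -0.29, while Cxcr3 over Ccr6 turned to -0.16 with the shortest transcript. CPM leaves out gene length and the transcript settings replace it, so these turns follow from the lengths. Leaving out replicate 2 turned Ccr9 over Cxcr3 to -0.29 (range -0.29 to 0.26) and Ccr4 over Cxcr6 to -0.25 (-0.25 to 0.40), and leaving out replicate 4 turned Ccr6 over Ccr4 to -0.17 (-0.17 to 0.19). Without length correction or with longest or shortest transcripts, Ccr9 over Cxcr3 was 2.50, 0.99 and 1.91. Cxcr5 over Ccr8, Cxcr6 over Ccr2, Ccr2 over Ccr10, Cxcr5 over Ccr7 and Cxcr5 over Cxcr4 kept their direction under every alternative run, and the contrasts not listed here were not rerun singly. No paired analysis was possible because there is a single group.

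Counts were few: 4 of the 9 receptors, Ccr6, Cxcr6, Ccr2 and Ccr10, had fewer than 100 over the 3 libraries. Differences under 2-fold between libraries were rarely called in simulation, and with 3 libraries no contrast between receptors reaches 0.05. The level of Ccr9, whose merged exons are far longer than its transcripts, depends on the length chosen, with 2.07 TPM for the merged exons and 3.86 TPM for the shortest transcript.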
